A study of Mus musculus with 42 samples.

Results

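The mammalian liver breaks down most dietary tryptophan, and the enzymes described here carry that breakdown through to NAD. The 10 genes were taken by name from the count table of 54446 genes. They are Tdo2, Ido2, Afmid, Kmo, Kynu, Haao, Acmsd, Qprt, Aadat and Nadsyn1. In the kynurenine pathway, Tdo2 or Ido2 opens the tryptophan ring, Afmid releases kynurenine, and Kmo, Kynu and Haao convert it to an unstable product that either closes to quinolinate or is diverted by Acmsd. Qprt turns quinolinate into a precursor of NAD, and Nadsyn1 catalyses the final step of this de novo route. Aadat leads kynurenine away to kynurenic acid.

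Liver RNA of 42 female mice was sequenced, with 1 library per mouse. All mice, the chow group included, carried the APOE*3-Leiden transgene, a human apolipoprotein E variant that slows the clearance of lipoproteins. The 10 mice of the chow group stayed on a maintenance diet. The 16 mice of the WTD group and the 16 of the WTD+Atorvastatin group were 8 to 14 weeks old at the start and ate a Western-type diet (WTD) with 15% cocoa butter, 40.5% sucrose and 1% cholesterol. A run-in of 3 weeks on this diet preceded the division into groups, and 0.05% sodium cholate was part of the diet from week 22. Atorvastatin, a statin that inhibits cholesterol synthesis, was mixed into the diet at 3.0 mg per kg per day and at 4.5 mg per kg per day from week 5. Livers were taken at week 32. The counts on genes summed to 15661381 to 36224054 read pairs in a library. Levels are given as CPM, the counts relative to the scaled size of each library, and as CPM per kilobase of exon where different genes are compared. In 8 libraries (3 chow, 4 WTD and 1 WTD+Atorvastatin) over 20% of the genes at 1 to 2 CPM in their group had no count, which marks libraries that captured fewer weakly expressed genes. The largest such share was 59.7%, in a chow mouse.

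Of the 10 genes, 9 had enough counts to be tested. Afmid was listed at 0 in all 42 mice, and no statement on its expression can be made from this. It lies on chromosome 11 from 117825924 to 117839908 on the plus strand (GRCm38), almost wholly within the span of Gm20708, which runs on the same strand from 117809668 to 117839904 and shares 1566 exon bases, 44.3% of those of Afmid. Gm20708 had 0 to 113 counts per mouse. Of 452 protein-coding genes that lie inside another gene on the same strand, 451 were listed at 0 in the table, so the zero values of Afmid were those of nearly every gene in such a position. The way the counting treated overlapping genes is not given in the sources used here.

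The positions of the other 9 genes are those of the GENCODE vM21 annotation of GRCm38. Tdo2 is on chromosome 3 (81957090 to 81976202, minus strand), Ido2 on 8 (24531892 to 24576333, minus), Kmo on 1 (175620381 to 175662116, plus) and Kynu on 2 (43555329 to 43682715, plus). Haao is on 17 (83831156 to 83847963, minus), Acmsd on 1 (127729413 to 127767978, plus), Qprt on 7 (127107114 to 127122226, minus), Aadat on 8 (60505932 to 60545677, plus) and Nadsyn1 on 7 (143795584 to 143822849, minus). Acmsd shares 94 exon bases (3.32%) with the antisense gene 2900009J06Rik, which had 522 counts over all mice. Reads of the pair could be told apart only if strand was used in the counting, which is not stated. Kmo overlaps Fh1 on the opposite strand in no exon base. Whether reads in introns were counted is not stated, so an effect of this overlap on the counts of Kmo cannot be judged.

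On WTD 8 of the 9 tested enzymes were called lower and Qprt was not. Upstream sequences are shown for Tdo2 and Haao, the only searched windows with the motif marked below, and for Qprt. RefSeq promoter windows (GRCm38.p6, 250 bases before to 50 bases after the start site) were searched for 7 of the 10 genes (Tdo2, Afmid, Kmo, Haao, Qprt, Aadat and Nadsyn1). The 250 bases before the start are printed 5′ to 3′ on the strand of the gene, and capitals mark the nuclear receptor motif AGGTCA or its reverse complement TGACCT.

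Tdo2, chr3:81975729-81975978, minus strand: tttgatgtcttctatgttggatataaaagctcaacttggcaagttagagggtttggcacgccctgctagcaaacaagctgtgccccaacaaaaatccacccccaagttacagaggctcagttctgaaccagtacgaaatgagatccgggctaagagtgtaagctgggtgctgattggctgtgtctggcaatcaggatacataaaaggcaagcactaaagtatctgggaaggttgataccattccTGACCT
Haao, chr17:83846791-83847040, minus strand: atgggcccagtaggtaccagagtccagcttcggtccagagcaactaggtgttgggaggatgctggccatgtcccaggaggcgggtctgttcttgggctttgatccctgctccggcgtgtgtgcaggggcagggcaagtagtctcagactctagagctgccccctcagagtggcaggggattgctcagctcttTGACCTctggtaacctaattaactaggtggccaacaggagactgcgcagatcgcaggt
Qprt, chr7:127122030-127122279, minus strand: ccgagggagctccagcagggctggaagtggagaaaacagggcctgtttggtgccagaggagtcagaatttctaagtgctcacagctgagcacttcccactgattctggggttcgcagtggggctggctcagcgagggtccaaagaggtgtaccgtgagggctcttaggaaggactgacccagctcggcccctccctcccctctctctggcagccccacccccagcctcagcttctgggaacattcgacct

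The AGGTCA motif was found, on either strand, in 2 of the 7 windows, against 16.3% of all 32851 windows. The matches began 6 bases before the start of Tdo2 and 58 bases before that of Haao. The windows of Kmo, Aadat and Nadsyn1, all called lower on WTD, held none, and neither did those of Qprt and Afmid. Other motifs were searched on both strands in the same way. TGTTCT of the glucocorticoid receptor was in 2 of the 7 windows (Kmo, 14 bases after the start, and Haao, 164 bases before it) against 19.0% of all. GTTAAT of HNF1 was in 1 (Haao, 41 bases before the start) against 7.1%. The letters TATAAA were in 1 (Tdo2, 229 bases before the start) against 13.6%, and CAAAGTCCA of HNF4 in 1 (Aadat, 72 bases before the start) against 0.475%. None of these motifs overlaps the AGGTCA match of the same window. A match describes the letters of the window and does not show binding.

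On chow, the enzymes differed widely in level. Per kilobase of exon, Tdo2 was the most abundant at 224 ± 49.2 CPM per kb (SD, n = 10), followed by Haao at 160 ± 20.9. Qprt (74.2 ± 11.4) and Kmo (58.5 ± 5.61) came next, then Ido2 (42.5 ± 5.92), Aadat (32.0 ± 3.27) and Kynu (29.9 ± 5.70). Acmsd (11.9 ± 5.66) and Nadsyn1 (10.7 ± 2.29) were lowest. Judged by overlap of the mean ± SD, 4 neighbouring pairs in this order could not be separated, namely Tdo2 and Haao, Qprt and Kmo, Aadat and Kynu, and Acmsd and Nadsyn1. On WTD, Ido2 was at 18.6 ± 6.07 CPM per kb, behind Aadat (22.1 ± 7.01) and Kynu (19.5 ± 4.04), with overlapping spreads. Exon lengths cover all annotated isoforms, and it is not stated whether reads in introns were counted. Levels per kb of different genes and their order are therefore approximate.

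The comparison of WTD with chow asked how the diet affects the pathway. All 9 tested enzymes had a lower estimate on WTD, each with an unadjusted p under 0.05 in edgeR. With the quasi-likelihood test of edgeR and an adjusted p under 0.01, 8 of 9 were called lower (Tdo2, Ido2, Kmo, Kynu, Haao, Acmsd, Aadat and Nadsyn1), and none was called higher. Over all 15574 tested genes, 16.0% were called lower and 17.5% higher. The median log2 fold change was -0.62 over the 9 enzymes and 0.03 over all genes. No enzyme had groups without overlap, while 5.83% of all genes did. Ido2 fell by 56.3%, the largest change, and Qprt was 13.1% lower and not called.

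Tdo2, the main enzyme of tryptophan entry into the pathway in liver, ranged from 539 to 1152 CPM on chow (median 886), from 375 to 1017 on WTD (median 581) and from 564 to 1090 on WTD+Atorvastatin (median 786). Of the WTD mice, 15 of 16 were below the chow median, and 4 were below every chow mouse. The level fell by 0.56 on the log2 scale (SE 0.11, adjusted p 6.75e-05).

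Ido2, a second enzyme of the same reaction with a known lower activity, ranged from 133 to 191 CPM on chow (median 150), from 47.7 to 141 on WTD (median 63.7) and from 66.0 to 136 on WTD+Atorvastatin (median 106). On WTD 15 of 16 mice were below every chow mouse. The log2 level fell by 1.19 (SE 0.13, adjusted p 4.24e-11).

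Kmo, the mitochondrial hydroxylase of kynurenine, had 229 to 309 CPM on chow (median 277), 108 to 290 on WTD (median 162) and 138 to 302 on WTD+Atorvastatin (median 213). Again 15 of 16 WTD mice were below all chow mice, and the log2 level fell by 0.72 (SE 0.10, adjusted p 6.45e-08). Aadat, which transaminates kynurenine in the competing branch, had 54.9 to 79.2 CPM on chow (median 71.1), 33.6 to 93.2 on WTD (median 44.3) and 43.1 to 88.5 on WTD+Atorvastatin (median 56.2). Its highest WTD mouse exceeded every chow mouse, while 13 of 16 lay below all of them. The log2 level fell by 0.54 (SE 0.12, adjusted p 0.000193).

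Kynu, the kynureninase, had 128 to 255 CPM on chow (median 182), 81.7 to 171 on WTD (median 119) and 123 to 240 on WTD+Atorvastatin (median 163). All 16 WTD mice were below the chow median, and the log2 level fell by 0.62 (SE 0.11, adjusted p 4.31e-06). Haao, the dioxygenase that forms the unstable precursor of quinolinate, had 546 to 912 CPM on chow (median 764), 270 to 609 on WTD (median 336) and 307 to 697 on WTD+Atorvastatin (median 583). Of the WTD mice, 15 of 16 were below all chow mice. The log2 level fell by 1.04 (SE 0.13, adjusted p 1.09e-08).

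Acmsd, the decarboxylase that diverts this precursor from NAD synthesis, was the most variable enzyme on chow, with 18.6 to 61.8 CPM (median 26.5). It had 1.36 to 25.7 CPM on WTD (median 16.2) and 11.7 to 30.0 on WTD+Atorvastatin (median 16.1). The 3 highest chow mice were at 49.4, 57.1 and 61.8 CPM and the other 7 at 29.4 or lower. The log2 level fell by 1.08 on WTD (SE 0.24, adjusted p 0.000215), and all 16 WTD mice were below the chow median. The lowest WTD mouse (replicate 9) had 26 counts of Acmsd, and its library was among the 8 with low capture.

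Qprt, which converts quinolinate, ranged from 166 to 255 CPM on chow (median 186), from 137 to 204 on WTD (median 175) and from 146 to 266 on WTD+Atorvastatin (median 183). The groups overlapped widely. The log2 difference of WTD from chow was -0.20 (SE 0.08, 95% interval -0.37 to -0.04, adjusted p 0.0472), which did not pass the threshold. Nadsyn1, the NAD synthetase, had 24.8 to 45.7 CPM on chow (median 34.7), 15.0 to 35.8 on WTD (median 22.9) and 24.0 to 41.1 on WTD+Atorvastatin (median 33.1). Its log2 level fell by 0.58 on WTD (SE 0.13, adjusted p 0.000139), with 15 of 16 mice below the chow median.

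**Figure D1:**
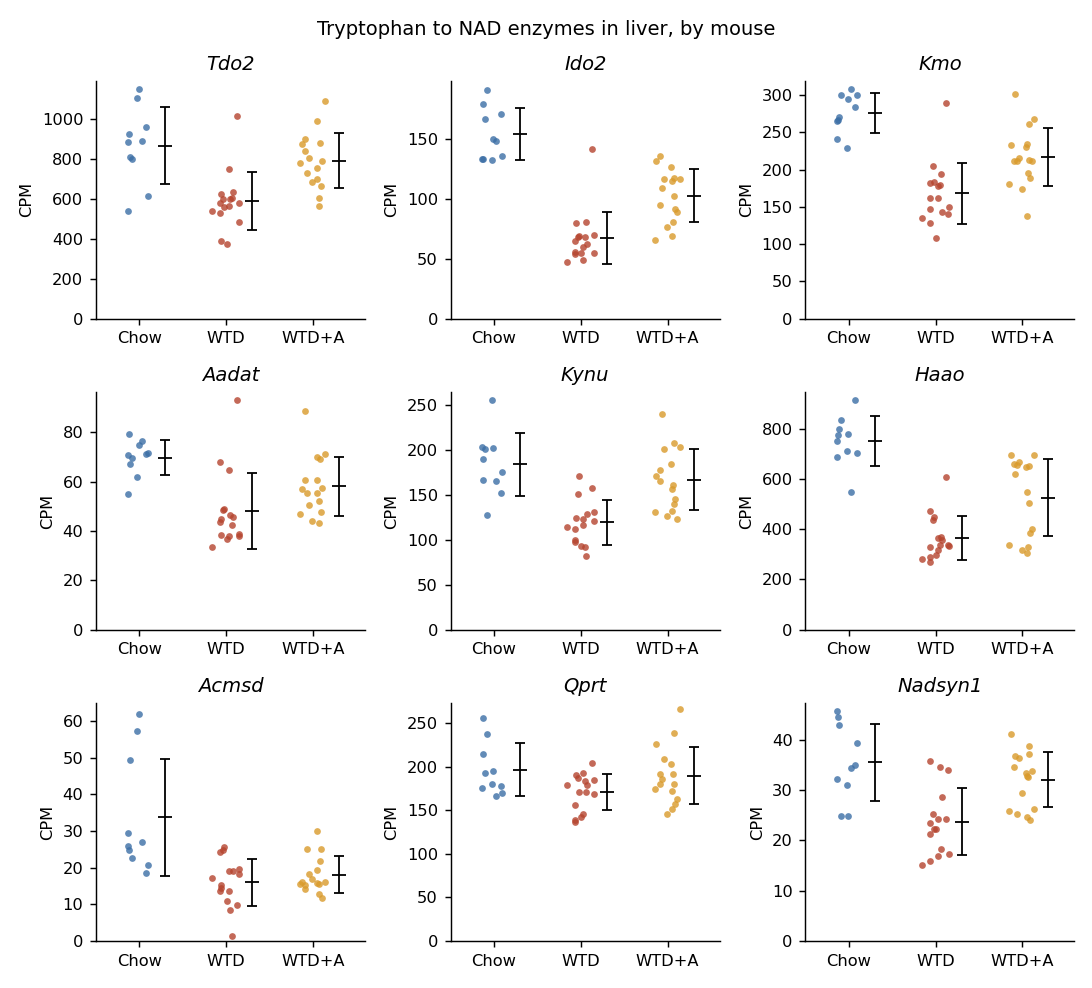
Levels of the 9 tested enzymes (vertical axes, CPM, from 0) in each mouse on chow (n = 10), WTD (n = 16) and WTD with atorvastatin (WTD+A, n = 16). Points are mice, and the black marks show mean ± SD. On WTD most points of Ido2, Kmo and Haao lie below all chow points, and 1 WTD mouse stands well above its group in several panels.

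The mouse that stood apart was WTD replicate 15. It was the highest of the 16 WTD mice for 6 of the 9 enzymes (Tdo2, Ido2, Kmo, Haao, Qprt and Aadat), with 141 CPM of Ido2 against at most 80.6 in the others. For Acmsd it ranked 14 of 16, at 9.89 CPM. It also had the highest summed hepatocyte markers of the WTD group (106787 CPM) and the lowest summed macrophage markers (1520 CPM). Without it, the remaining 15 WTD mice were below every chow mouse for Ido2, Kmo and Haao. This separation follows from the choice of the mouse, which was the highest of its group for these enzymes. With all 16 WTD mice, 5.83% of all genes had groups without overlap, and the share without this mouse was not computed.

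Marker genes of liver cell types moved with the same contrast. In bulk tissue, fewer cells of a type and less RNA per cell cannot be told apart. All 9 hepatocyte markers found were called lower on WTD (median log2 fold change -0.76), and their summed level was 107930 to 159769 CPM on chow, 53728 to 106787 on WTD and 63237 to 130391 on WTD+Atorvastatin. The hepatocyte sum rests mostly on Alb, which had 62566425 counts over all mice, against 7109185 for Apoa1, the next. The markers of macrophages and Kupffer cells were called higher in 8 of 11 tested, with sums of 322 to 528 CPM on chow, 1520 to 3066 on WTD and 1134 to 2175 on WTD+Atorvastatin, and Itgam was listed at 0. For stellate cells 6 of 10 were called higher, with sums of 404 to 686, 1153 to 2639 and 1042 to 2488 CPM in the same order. For cholangiocytes 6 of 6 were called higher (106 to 185, 210 to 885 and 239 to 626 CPM). Endothelial markers were called higher in 2 and lower in 2 of 7 (17.5% and 16.0% of all genes), with sums of 241 to 363, 196 to 363 and 254 to 364 CPM. Lymphocyte and dendritic cell markers were called higher in 2 of 10, near the 17.5% of all genes (19.0 to 80.6, 70.1 to 147 and 67.9 to 126 CPM). Their median log2 fold change was 0.76, and 5 had an unadjusted p under 0.05 in edgeR. DESeq2 called 4 of them higher (3482 of 19167 over all genes) and limma-voom 3 (3405 of 15574). Markers of kidney proximal tubule, the other tissue known to express several of these enzymes, summed to at most 2.63 CPM in any mouse, with Slc34a1 and Kap at 0. The part of cell composition in the fall of the enzymes was not tested.

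**Figure D2:**
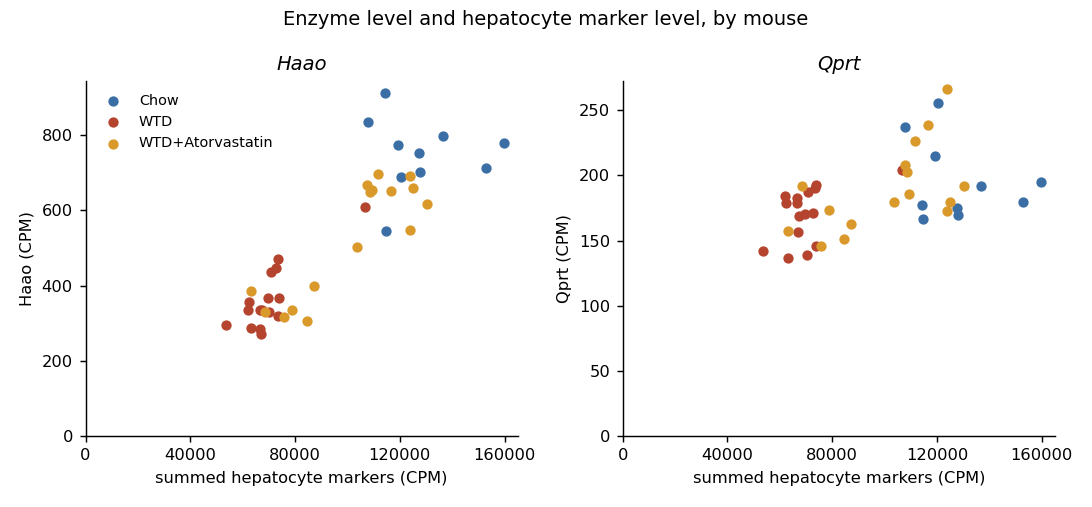
Level of Haao (left, CPM) and Qprt (right, CPM) against the summed level of 9 hepatocyte markers (horizontal axes) in each of the 42 mice, coloured by group. Low Haao and low marker sums occur in the same mice, with WTD replicate 15 at 609 CPM of Haao next to the chow and treated mice, while the Qprt levels of the 3 groups overlap.

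The comparison of WTD+Atorvastatin with WTD asked how treatment on the same diet affects the pathway. All 9 enzymes had a higher estimate in treated mice, 6 passed the threshold and none was called lower. Tdo2, Ido2, Kmo, Kynu, Haao and Nadsyn1 were called higher, while 4.84% of all genes were called higher and 2.26% lower. The median log2 fold change of the 9 enzymes was 0.42, against 0.00157 over all genes. No enzyme separated the groups without overlap, as did only 0.00642% of all genes.

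The largest rise was again that of Ido2, by 52.0% (log2 fold change 0.60, SE 0.11, adjusted p 0.000177), and all 16 treated mice were above the WTD median. Haao rose by 43.9% (log2 0.53, SE 0.12, adjusted p 0.00183), with 8 treated mice above every WTD mouse and 4 below the WTD median. Kynu rose by 39.2% (log2 0.48, SE 0.10, adjusted p 0.00042), with 16 of 16 mice above the WTD median. Smaller rises were those of Nadsyn1 by 35.0% (adjusted p 0.0056, 16 of 16 mice), Tdo2 by 34.2% (adjusted p 0.00275, 15 of 16) and Kmo by 29.1% (adjusted p 0.00369, 15 of 16). Nadsyn1 missed the threshold in 10 of 42 fits without 1 mouse (adjusted p up to 0.0128) and under RLE scaling (0.0123).

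Acmsd, Qprt and Aadat were not called. Acmsd differed by 0.18 on the log2 scale (95% interval -0.24 to 0.60, adjusted p 0.686), and 7 of 16 treated mice were above the WTD median. Qprt differed by 0.15 (95% interval 0.01 to 0.30, adjusted p 0.197) and Aadat by 0.27 (95% interval 0.06 to 0.48, adjusted p 0.083, 14 of 16 mice above the WTD median). Without WTD replicate 15, Aadat was also called (log2 fold change 0.36, adjusted p 0.00298). Without the 8 low-capture libraries only Ido2, Kynu and Nadsyn1 were called, and Tdo2, Kmo and Haao missed the threshold at log2 fold changes of 0.41, 0.37 and 0.46. Over all genes 487 of 15877 were then called higher, against 754 of 15574 with all libraries. In the same contrast, 5 of 9 hepatocyte markers and 2 of 7 endothelial markers were called higher and none of either lower. Of the macrophage markers 4 of 11 were called lower and 1 higher, and of the stellate cell markers 4 of 10 lower and 1 higher. For cholangiocytes 1 of 6 was called lower, and for lymphocytes 0 of 10 in either direction (2 at an unadjusted p under 0.05, 0 by DESeq2 and 2 lower by limma-voom). Over all genes 4.84% were called higher and 2.26% lower. Their part in the rise of the enzymes was not tested.

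Treated mice were not uniform. Haao was at 307 to 399 CPM in 6 of the 16 treated mice and at 502 to 697 in the other 10. The same 6 mice had the lowest Ido2 (66.0 to 91.9 CPM, against 95.3 to 136 in the others). They were also the lowest for Kmo, but without a clear gap (138 to 211.6 CPM, against 211.8 to 302). Their summed hepatocyte markers were the lowest too (63237 to 87219 CPM, against 103476 to 130391 in the others). They also had the lowest summed endothelial markers (254 to 292 CPM, against 302 to 364) and the highest summed stellate cell markers (1690 to 2488 CPM, against 1042 to 1434). Of the 6 highest treated mice for each sum, they were 5 for cholangiocytes (379 to 626 CPM), 5 for lymphocytes and dendritic cells (95.1 to 126 CPM) and 4 for macrophages (1448 to 2175 CPM), with ranges that overlapped those of the other 10. The part of these cell types in the levels of the enzymes was not tested. For Kynu and Qprt 5 of the 6 lowest treated mice were among them, for Aadat and Nadsyn1 4 of 6, and for Tdo2 and Acmsd 3 of 6. By the order of the mouse numbers in the labels, the mice with low Haao were treated replicates 1, 2, 3, 4, 7 and 15. The labels give no cage or batch, and a part of this order in the levels was not tested.

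The comparison of WTD+Atorvastatin with chow asked how far treated mice still differed from healthy ones. It shares its groups with both comparisons above. In this contrast 4 of 9 enzymes were called lower (Ido2, Kmo, Haao and Acmsd), while 10.7% of all genes were called lower and 14.2% higher. The median log2 fold change was -0.26 over the enzymes and 0.04 over all genes. No enzyme had groups without overlap (4.37% of all genes).

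Acmsd was 46.3% lower than on chow (log2 fold change -0.90, SE 0.24, adjusted p 0.00249), with 15 of 16 treated mice below the chow median. Ido2 was 33.5% lower (log2 -0.59, adjusted p 0.000189, 15 of 16 mice below every chow mouse), Haao 29.9% lower (log2 -0.51, adjusted p 0.00223) and Kmo 21.5% lower (log2 -0.35, adjusted p 0.00616). Without chow replicate 7, the mouse with the highest Acmsd, Acmsd was no longer called (log2 fold change -0.76, adjusted p 0.0109), and Kmo also missed the threshold, which left Ido2 and Haao. The other enzymes did not pass the test. Their log2 differences were -0.26 for Aadat (95% interval -0.50 to -0.03), -0.15 for Nadsyn1 (-0.40 to 0.10), -0.14 for Kynu (-0.36 to 0.07), -0.13 for Tdo2 (-0.36 to 0.09) and -0.05 for Qprt (-0.22 to 0.12).

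**Figure D3:**
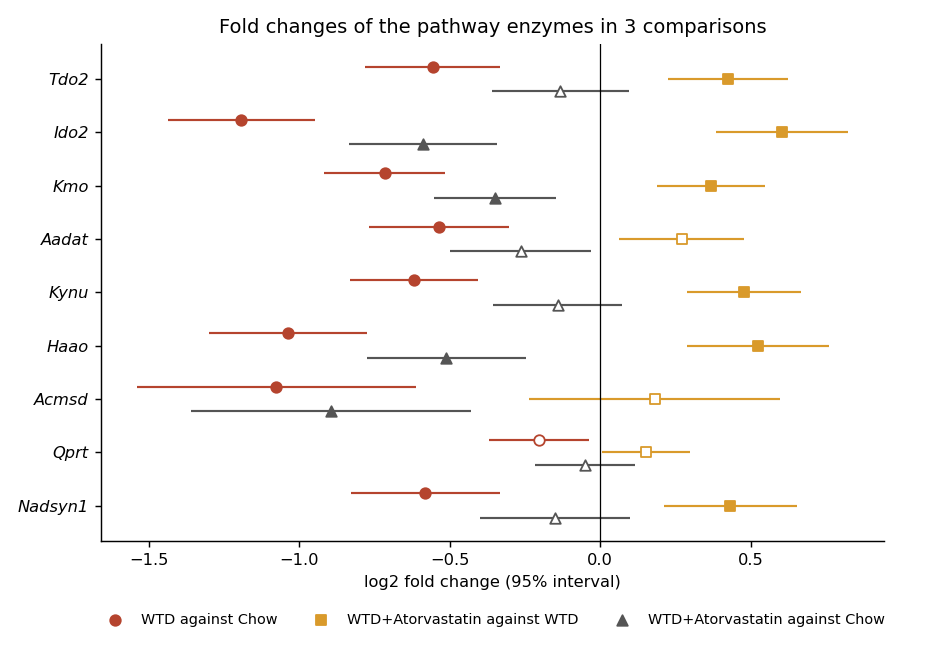
Log2 fold changes (horizontal axis) of the 9 enzymes in the 3 comparisons, with bars for the 95% interval. Filled symbols mark an adjusted p under 0.01. For WTD against chow only the symbol of Qprt is open, for WTD+Atorvastatin against WTD those of Aadat, Acmsd and Qprt are open, and for WTD+Atorvastatin against chow those of Ido2, Kmo, Haao and Acmsd are filled.

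Acmsd and Qprt act on either side of the branch between full oxidation and NAD synthesis, so their counts were set against each other within each mouse. The log2 ratio of Acmsd to Qprt counts was -2.66 ± 0.66 on chow (SD, n = 10), -3.61 ± 1.02 on WTD and -3.42 ± 0.46 on WTD+Atorvastatin (n = 16 each). In a two-sided permutation test the ratio was lower on WTD than on chow by a difference of -0.96 (p 0.00643, adjusted over 9 tests 0.0289), and 14 of 16 WTD mice were below the chow median. It was also lower in treated mice than on chow (difference -0.76, permutation p 0.00229, adjusted 0.0206, 13 of 16 mice). Treated and untreated WTD mice differed by 0.20 (permutation p 0.561). WTD replicate 9 had the lowest ratio, -6.95, and without it the difference of WTD from chow was -0.73 (permutation p 0.00429) and that of treated from WTD mice -0.03. Chow replicates 6, 7 and 8, the highest in Acmsd, had ratios of -1.65, -1.66 and -1.96, and every other chow mouse was at -2.62 or lower. Without chow replicate 7 the difference of WTD from chow was -0.85 (permutation p 0.0193, before adjustment).

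The ratios of Kmo to Kynu and of Kmo to Aadat, successive and competing steps after kynurenine, passed the threshold in none of 6 permutation tests (p 0.0873 to 0.389, adjusted 0.217 to 0.438). Kmo to Aadat was 1.99 ± 0.11 on chow, 1.82 ± 0.28 on WTD and 1.90 ± 0.19 on WTD+Atorvastatin (log2, SD). Kmo to Kynu was 0.60 ± 0.39, 0.48 ± 0.32 and 0.39 ± 0.26 in the same order. Without the low-capture libraries, Kmo to Kynu was lower than on chow both on WTD (-0.28, p 0.0215) and on WTD+Atorvastatin (-0.28, p 0.0292), before adjustment. Leaving out 1 mouse moved the difference of Kmo to Kynu for WTD against chow between -0.21 and -0.05. For treated mice against chow it was -0.30 without chow replicate 6 (p 0.0135), and Kmo to Aadat for WTD against chow was -0.19 without WTD replicate 9 (p 0.0423), both permutation tests before adjustment.

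**Figure D4:**
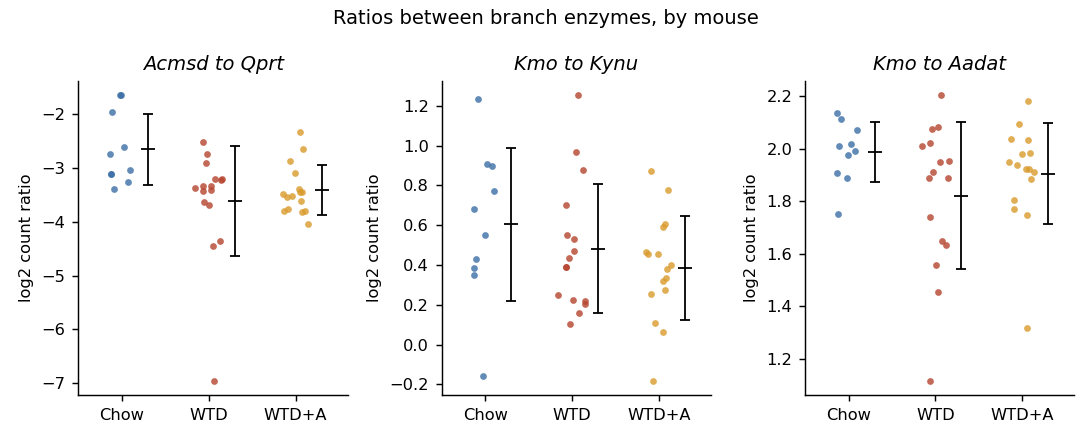
Log2 ratios of counts (vertical axes) of Acmsd to Qprt, Kmo to Kynu and Kmo to Aadat in each mouse of the 3 groups (WTD+A is WTD with atorvastatin), with mean ± SD in black. Most WTD-fed mice have a lower Acmsd to Qprt ratio than the chow mean of -2.66, and the lowest point at -6.95 is WTD replicate 9.

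Covariation of the enzymes between mice of the same group was examined for 36 pairs of genes in each group (108 permutation tests, adjusted together). At an adjusted p under 0.05, 1 pair was correlated on chow, 10 on WTD and 12 on WTD+Atorvastatin, all positively. By Spearman's rho 0, 6 and 11 pairs passed. The median Pearson r over the pairs was -0.09, 0.46 and 0.43. The chow group had fewer mice, and the difference between groups was not tested. On chow the pair was Kynu and Acmsd (r 0.74, rho 0.72, permutation p 0.01 and 0.0229, adjusted 0.047 and 0.0933), with r 0.73 after leaving out the 2 mice farthest from the median of Kynu. It did not pass the adjusted threshold under RLE scaling, without the low-capture libraries or without these 2 mice.

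On WTD the count of pairs depended on replicate 15. Without this mouse 4 of the 10 pairs passed the threshold. Without the 2 mice farthest from the median of the first gene named in a pair, 1 passed, Kynu and Haao (r 0.76, permutation p 0.00087). These 2 mice differed between pairs, and for Kynu replicate 15 was not one of them. Kynu and Haao was not among the 4 pairs that passed without replicate 15. Over all 16 mice it had r 0.66 and rho 0.57 (permutation p 0.00471 and 0.0233, adjusted 0.0254 and 0.0933). Without the low-capture libraries 13 pairs passed, 8 of them among the 10. Tdo2 and Kmo had r 0.85 and rho 0.66 (permutation p 5e-05 and 0.00643, adjusted 0.0018 and 0.0408), and r 0.58 after leaving out the 2 farthest mice (permutation p 0.0218, adjusted 0.124). For Kmo and Haao the values were r 0.83 and rho 0.77 (permutation p 8e-05 and 0.00092, adjusted 0.00216 and 0.0135), and then r 0.71 (permutation p 0.0053, adjusted 0.0572). On WTD+Atorvastatin, 5 of the 12 pairs included Haao, whose treated levels fell into separate ranges, and no r is given for them. Ido2 and Kmo had r 0.86 and rho 0.91 (permutation p 1e-05 for both, the smallest the test can give, adjusted 0.00108), and r 0.83 without the 2 farthest mice. For Kmo and Aadat r was 0.75 and rho 0.79 (permutation p 0.00081 and 0.00054, adjusted 0.00875 and 0.0135), and then r 0.90. The 6 mice with low Haao were also the lowest for Ido2 and Kmo and for hepatocyte markers, whose part in these relations was not tested.

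Genes around the pathway were taken from 7 further lists. Over all genes, edgeR called 17.5% higher and 16.0% lower on WTD, and 4.84% higher and 2.26% lower with atorvastatin. The counts of every list below stand beside these shares. Other enzymes of tryptophan and kynurenine were called lower on WTD in 5 of 9 tested and higher with atorvastatin in 4 of 9. Kyat1, a kynurenine aminotransferase like Aadat, fell from 266 to 441 CPM on chow to 41.0 to 103 on WTD, without overlap (log2 fold change -2.28, SE 0.13, adjusted p 2.27e-19), and was at 86.8 to 162 CPM on WTD+Atorvastatin (log2 0.89 against WTD, adjusted p 5.91e-06). Its relative Kyat3 fell by 1.06 on the log2 scale and Maob, a monoamine oxidase, by 0.91, and the mitochondrial aminotransferase Got2 rose with treatment by 0.35. Ido1, the enzyme of the same reaction in immune cells, had 0 counts on chow, 35 over the WTD mice and 7 over the treated mice. Tph1 and Tph2, which lead tryptophan to serotonin, had 4 and 11 counts in all.

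Of 5 tested tryptophan transporters, edgeR called 1 higher and 1 lower on WTD, beside 17.5% and 16.0% of all genes. Slc7a8, an amino acid exchanger, rose from 2.73 to 12.5 CPM on chow to 20.8 to 45.05 on WTD, without overlap (log2 2.08, adjusted p 5.32e-15), and was at 18.9 to 37.1 CPM with atorvastatin. Slc16a10, a carrier of aromatic amino acids, fell by 0.63 on the log2 scale on WTD (adjusted p 1.66e-06). Between treated and untreated mice edgeR called 0 of 5 transporters, with 1 at an unadjusted p under 0.05, DESeq2 called 0 and limma-voom 1. That one was Slc16a10 (log2 0.29 and adjusted p 0.0262 in edgeR).

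The glutarate branch, which oxidises the carbon skeleton after Acmsd and also serves lysine, fell on WTD in 8 of 9 tested genes, and 4 of 9 rose with atorvastatin. Gcdh, the glutaryl-CoA dehydrogenase, went from 730 to 857 CPM on chow to 288 to 602 on WTD, without overlap (log2 -1.15, adjusted p 3.08e-14), and was higher with treatment by 0.44 (adjusted p 0.000337). Aldh8a1, which acts just after Acmsd, fell by 0.79 on the log2 scale and was 0.50 higher with treatment (adjusted p 1.86e-08 and 0.000208). Aass of lysine breakdown fell by 0.83 and was 0.40 higher with treatment.

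NAD is also made from nicotinic acid and nicotinamide. In the list of these salvage enzymes and of NADP synthesis, edgeR called 6 of 11 tested genes lower on WTD and 0 higher, and 4 of 11 higher with atorvastatin. On WTD, 8 of the 11 had an unadjusted p under 0.05, and DESeq2 called 2 and limma-voom 1 higher. Naprt, the entry enzyme for nicotinic acid, went from 133 to 188 CPM on chow to 72.9 to 132 on WTD, without overlap (log2 -0.83, adjusted p 1.33e-10), and against chow it was also lower in treated mice (log2 -0.71, adjusted p 1.97e-08). Nmrk1, a nicotinamide riboside kinase, fell by 0.79 and Slc25a51, the mitochondrial NAD carrier, by 0.75. With treatment Slc25a51 rose by 0.43, Nadk2, the mitochondrial NAD kinase, by 0.34 and Nmnat1, which makes NAD in the nucleus, by 0.56. Nampt, the main salvage enzyme, was called higher in treated mice than on chow (log2 0.31, adjusted p 0.0066).

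Of the genes that clear nicotinamide and nicotinic acid, 4 of 4 fell on WTD. With treatment edgeR called 0 of 4, with 2 at an unadjusted p under 0.05, DESeq2 called 0 and limma-voom 1 (Cyp2e1). Nnmt, which methylates nicotinamide, went from 123 to 244 CPM on chow to 24.2 to 83.6 on WTD and 34.4 to 101 on WTD+Atorvastatin (log2 -1.89 and -1.81 against chow, adjusted p 1.22e-11 and 9.31e-11). Aox3 and Cyp2e1, which oxidise these compounds or their products, fell by 0.72 and 0.98 on the log2 scale on WTD. Of 16 NAD consuming enzymes, edgeR called 3 lower and 1 higher on WTD (16.0% and 17.5% of all genes). DESeq2 and limma-voom each called 2 higher. Cd38, an NAD hydrolase of immune cells, rose (6.52 to 21.5 CPM on chow, 27.5 to 54.8 on WTD, log2 1.32, adjusted p 1.04e-12). Sirt3, the mitochondrial deacetylase, fell by 0.93 (adjusted p 5.27e-11), and it was higher with treatment (log2 0.40, adjusted p 0.00153). With treatment edgeR and DESeq2 each called 1 gene of this list higher, and limma-voom 3. Sirt7 fell by 0.63 on WTD.

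Kynurenine and its products are known ligands of the aryl hydrocarbon receptor. On WTD, 3 of 9 tested genes of the receptor and its targets were called higher and 2 lower, beside 17.5% and 16.0% of all genes. Cyp1b1 rose (0.05 to 5.38 CPM on chow, 2.83 to 23.5 on WTD, log2 2.84, adjusted p 3.61e-09), while Cyp1a2 fell (499 to 768 CPM on chow, 183 to 589 on WTD, log2 -1.02, adjusted p 1.12e-08) and was higher with treatment (log2 0.78, adjusted p 2e-05). Ahr itself fell by 0.44 on WTD (adjusted p 0.000424). Nqo1 was higher in treated mice than on chow (log2 0.62, adjusted p 0.00203), as was Arnt, the partner of the receptor (log2 0.29). Ugt1a6a was listed at 0 in all mice.

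**Figure D5:**
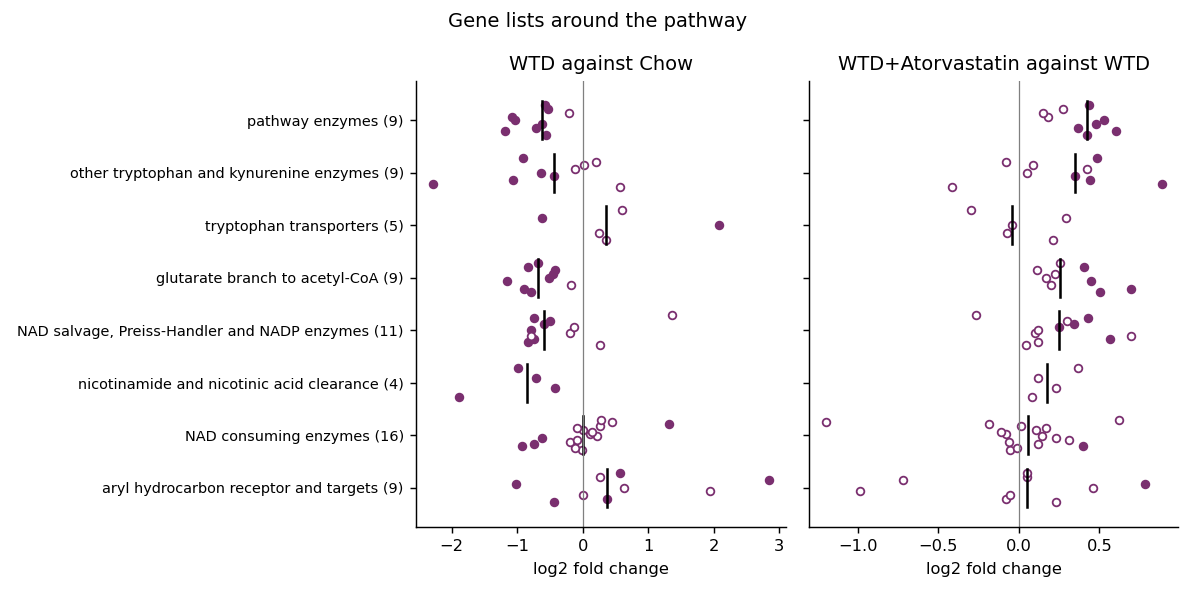
Log2 fold changes (horizontal axes) of the tested genes of the pathway and of 7 lists around it, for WTD against chow (left) and WTD+Atorvastatin against WTD (right). Each circle is a gene (number tested in brackets), filled circles have an adjusted p under 0.01, and black bars are list medians, which are -0.62 and 0.42 for the pathway enzymes.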

How the data were processed

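The authors prepared strand-specific libraries from polyadenylated liver RNA, aligned read pairs to GRCm38 with STAR 2.5 and deposited the counts of HTSeq 0.6.1p1 per gene, without normalization. The table of all mice held the same values as the 42 single tables. Read pairs in no gene (mean 2.28%), ambiguous (5.95%) or not uniquely aligned (4.68%) entered no total. Symbols, positions and exon lengths came from GENCODE vM21 (54409 of 54446 identifiers), whereas the authors counted on vM19.

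Weak genes were removed by filterByExpr, with a minimum of 10 counts and of 15 in total. After TMM scaling, edgeR 4.0.16 (R 4.3.3) fitted its robust quasi-likelihood model to all 42 mice, with 3 groups and no covariate. Each count comes from 1 library per mouse, and no batch is given in the labels. Adjusted p values (Benjamini-Hochberg over 15574 genes) under 0.01 were called. CPM use the TMM-scaled library sizes. Ratios used a pseudocount of 0.5. Permutation tests drew 100000 permutations. The 95% intervals are of the fitted log2 fold change between groups and do not give the range of single mice.

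The text names all 10 enzymes in every comparison and from each further list genes among the 3 with the smallest p per comparison, plus genes with few or no counts. The enzymes and lists were chosen with earlier results of these data known. The 3 highest chow values of Acmsd, WTD replicates 9 and 15, and the 6 treated mice with low Haao were singled out after their values were seen, and so was the fit of pairs without WTD replicate 15. In simulated WTD and chow data with 15309 genes, the test called 131 of 200 genes with a true log2 change of 1, and 1 unchanged gene. Alternatives were DESeq2 1.42.0, limma-voom (limma 3.58.1) with quality weights, RLE and upper quartile scaling, other filters and thresholds, only the groups compared, no low-capture libraries and leaving out each mouse. Columns of ready-made comparisons were absent from the files. Figures used matplotlib 3.10.9. One promoter window is not reported here.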

Additional observations from a re-analysis of the deposited data

How the results depend on the processing

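The 8 calls of WTD against chow held under all alternatives but the added fold change below and in all 42 fits without 1 mouse (8 to 8 enzymes), and Qprt passed an adjusted p under 0.05. For WTD+Atorvastatin against WTD, leaving out a mouse gave 5 to 7 called enzymes, with Nadsyn1 lost in 10 fits and under RLE scaling (adjusted p 0.0123) and Aadat gained without WTD replicate 15. Without the low-capture libraries 3 were called, and Tdo2 (adjusted p 0.0136), Kmo (0.0166) and Haao (0.0294) were lost. Over all genes 487 of 15877 were then called higher, against 754 of 15574 with all libraries. Against chow, treated mice had 2 to 4 called enzymes, with 2 without chow replicate 7, and Kmo was lost in 8 fits. Without chow replicate 7, 1597 of 15724 genes were called lower, against 1674 of 15574 with all mice. With a log2 fold change of at least 1 as an added condition, 3, 0 and 0 enzymes were called in the 3 comparisons. The share of all genes under this condition was not computed. Differences near 0 changed sign, namely Acmsd for treated against WTD in limma-voom (-0.0011), and Qprt for treated against chow in limma-voom (0.023) and without the low-capture libraries (0.0018). Limma-voom also called Aadat in both comparisons of treated mice. The cause was not tested.

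Among the ratios, Acmsd to Qprt for treated against WTD ranged from -0.026 to 0.27 when 1 mouse was left out. For WTD against chow it ranged from -1.04 to -0.73 (permutation p up to 0.0193, before adjustment). Kmo to Kynu without the low-capture libraries was -0.28 for WTD and -0.28 for treated mice against chow, and 0.0034 for treated against WTD. Its range without 1 mouse was -0.30 to -0.15 for treated mice and -0.21 to -0.05 for WTD against chow, and that of Kmo to Aadat for WTD against chow was -0.19 to -0.12. Correlated pairs on chow were 0 under RLE scaling, without the low-capture libraries and without the 2 farthest mice. On WTD they were 1 without the 2 farthest mice, 4 without replicate 15 and 13 without the low-capture libraries, and on WTD+Atorvastatin they ranged from 8 without the 2 farthest mice to 14 without the low-capture libraries. Over all genes, limma-voom called 3118 for treated against WTD where edgeR called 1106, and RLE scaling moved the split of higher and lower calls from 754 and 352 to 582 and 479. No paired analysis was possible because the numbers in the labels name single mice and tie no mouse to one of another group.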
